A study of Homo sapiens with 12 samples.

Results

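The data describe which stretches of mRNA were recovered by an antibody against 7-methylguanosine (m7G) in libraries labelled as control THP-1 cells. THP-1 is a leukemia line of human monocytes, which PMA, a phorbol ester, turns into adherent cells that resemble macrophages. A region is a peak of the authors' deposited peak table, and a region was taken when its reads summed to at least 20 over the 6 control libraries. The sum uses all 6 libraries and not the contrast between them. This took 6324 of 9958 regions (63.5%). Of these, 6036 lay in 1 protein-coding gene (3340 genes), 123 in several, 28 in a long non-coding RNA and 127 in no gene. Mitochondrial DNA held 27 of the regions, in genes for proteins, tRNAs and rRNAs.

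All cells received PMA at 100 ng/ml for 48 h, and mRNA was taken on oligo(dT) beads. NC is the control, given by the library names and called wildtype in the series' design text, and KD carries a short hairpin against the methyltransferase METTL1 (shMETTL1), whose level was not measured because no region lay in that gene. IN was taken as the input and IP as the immunoprecipitate, with 3 libraries of each kind from NC and from KD cells. The labels do not say whether the libraries of a group came from separate cultures, so p-values measure the spread between these libraries, which may be technical.

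Reads in the 6324 regions numbered 904457 to 1049487 in the NC input libraries and 1467767 to 1667045 in the NC IP libraries. These sums cover peak regions and are not the sequencing depth. Across regions, log2 CPM (counts per 1000000 reads in these regions, with TMM scaling) correlated at r = 0.928 to 0.933 between input libraries, 0.965 to 0.97 between IP libraries and 0.867 to 0.898 between the 2 kinds. Markers of 2 cell types were set against the labels first. Of 34 monocyte and macrophage markers, 13 had a region and 11 reached 20 reads, and their summed level was 1540 to 1840 CPM in NC input and 3580 to 3930 CPM in KD input. Of 20 genes known from the HEK293 line, 16 had a region, and their summed level was 9010 to 9920 CPM in NC input, 8560 to 9610 CPM in NC IP and 1470 to 1590 CPM in KD input, where 13 of the 16 had under 10 reads and 5 had none. NEFM, a neurofilament gene of that list, held 14330 reads in NC input and 5 in KD input. These levels go against the label of 1 cell line in both conditions. The marker lists were in part chosen after earlier results of these data were known, so they are no independent test of that label. The identity of the NC cells was not settled here, and they are called control as labelled. Fewer cells of a type and less RNA per cell cannot be told apart in such libraries. Fibroblast markers had regions in 3 of 9 genes, at 16.5 to 34.2 CPM in NC input, and surface epithelial, lymphoid, erythroid and hepatocyte markers had none. In NC IP over NC IN, 10 of the 14 HEK293-line genes with at least 20 reads were called lower and 0 higher (edgeR, the region with most reads per gene), against 3 lower and 3 higher of the 11 macrophage markers. Over all regions 17.7% were called lower and 22.5% higher. In the highest of 4 classes of regions by reads 50.9% were called lower. The part of read number in the marker counts was not tested. Without the 739 regions of 533 genes that had at least 4 times as many input CPM in NC as in KD, 2346 regions were called in NC, 1257 higher and 1089 lower. Without those regions the gap in median log2 IP over input between the first 10% of genes and the middle, described below, was 0.70 against 0.75 with them. The part of such genes in the remaining results was not tested.

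m7G is best known as the cap at the 5′ end of mRNA, which translation initiation factors bind and which protects the message from decay. The same base occurs inside tRNAs, where METTL1 and its partner WDR4 place it, in small-subunit rRNA, and at internal sites reported in mRNA. Human mitochondrial transcripts carry no m7G cap. Whether caps were removed before the antibody step is not given in the sources used here.

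Transcript starts under the highest and lowest regions described below are shown because they are where the cap sits. Each is the first 30 transcribed bases of a RefSeq start on GRCh38.p14 inside the region, written 5′ to 3′, with the first transcribed base in capitals. LPAR2 and HOXD13 are among the 15 highest regions and the other 6 genes among the 15 lowest. Of the 15 highest, 6 spanned an annotated start, and those other than LPAR2 and HOXD13 are not printed.
LPAR2 (chr19:19628191-19628220, minus strand): Ctctcagcaacccgcacagggcgcacccgg
HOXD13 (chr2:176092721-176092750, plus strand): Gttggagggcaggcgggccggaggcgggag
SPATA1 (chr1:84506386-84506415, plus strand): Cttttcctctccagaggggccgattaggga
NAP1L1 (chr12:76084656-76084685, minus strand): Cttttttagcgccatctgctcgcggcgccg
CARD8 (chr19:48249604-48249633, minus strand): Agaaggagggctgtctgagattcgagggaa
CIAO2A (chr15:64093809-64093838, minus strand): Gatcaatcccgaggctgctgagagacggtg
NREP (chr5:111757165-111757194, minus strand): Acatttgtgtttcaggtgtagagaggagag
NCL (chr2:231464455-231464484, minus strand): Agtctcgagctctcgctggccttcgggtgt

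A first C followed by pyrimidines is known from mRNAs of the translation machinery, and it is seen here on both sides. LPAR2 and FBXW4, whose start is not printed, had it with IP above input, and SPATA1 and NAP1L1 with IP below it. Over 1028 regions with a matched start (1 per overlapping cluster), the first 5 bases were all C or T in 4.86%, in 4.10% of those called higher in IP and in 11.0% of those called lower, against 5.16% of all 34796 starts in the RefSeq table. The first base was G in 48.1% of these starts, in 52.2% of those called higher and in 34.0% of those called lower, against 33.6% of all starts. In 3 classes of equal size by the GC content of the first 50 bases, the median log2 IP over input was 0.31, 0.65 and 0.83 from the lowest to the highest GC. Over single starts the relation was weak (Pearson r = 0.0823, Spearman rho = 0.118, n = 1028 starts from the same 6 libraries), and GC also went with fewer reads (r = -0.0777). The share called higher was similar in the 3 GC classes, at 25.9%, 25.4% and 26.8%. The share called lower fell, at 13.7%, 9.94% and 5.54%. These are descriptions of sequence and not of binding.

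The comparison of NC IP with NC IN asks which RNA the antibody took up from control cells. IP differed from input in 2543 regions (40.2%), of which 1423 were higher in IP (22.5%) and 1120 lower (17.7%; edgeR quasi-likelihood test, adjusted p under 0.05). The 1423 higher regions had a median log2 IP over input of 1.85, and the 1120 lower regions of -0.81. Higher regions lay in 787 genes and lower regions in 716, with 60 genes holding both. Large differences were mostly upward: 1184 regions were at least 2-fold higher against 316 at least 2-fold lower, and 638 were at least 4-fold higher against 69 at least 4-fold lower. All 3 IP libraries lay above all 3 input libraries in 2031 regions (32.1%) and below them in 1399 (22.1%).

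Every region in the table is a called peak, so a region lower in IP took up less than the average peak, and the fold of the RPS6 peak in the authors' deposited table was 2.26 although it was called lower here. The scaling sets this centre. With TMM 56.0% of calls were higher, and with library size alone 68.7% were (1765 higher, 804 lower), while the median over all regions moved from 0.29 to 0.50. Without NC IP replicate 2 the number called higher was 944. Regions just inside the limit of 20 reads (20 to 24 reads, 446 regions) held 2.82 IP reads per input read, and those just outside (15 to 19 reads, 733 regions) held 2.79.

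**Figure D1:**
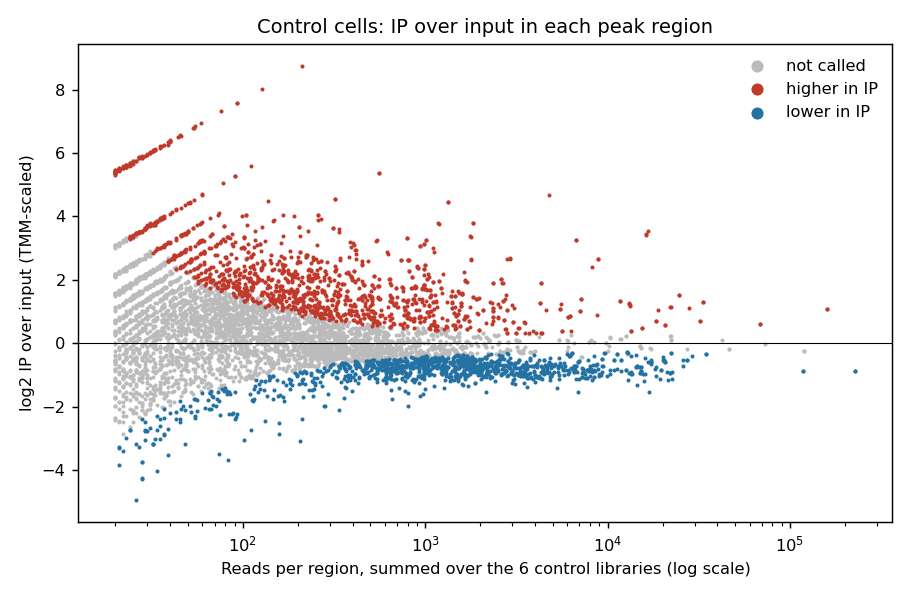
Each point is 1 of the 6324 regions, with its reads summed over the 6 control libraries on a logarithmic x axis and its log2 IP over input on the y axis; colours mark regions called higher in IP, called lower or not called at an adjusted p under 0.05. The cloud slopes downward to the right, from a median of 1.03 in the class of regions with fewest reads to -0.41 in the class with most, of 4 classes of equal size.

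The region with the smallest p was that of FBXW4, which encodes an F-box protein that recruits substrates to a ubiquitin ligase. It spans the annotated start of the gene (chr10:101694456-101695205, minus strand, 750 bases). Input libraries held 39, 28 and 31 reads and IP libraries 1882, 1413 and 1394. The groups lay far apart, and the level rose from 35.9 ± 3.15 CPM to 935 ± 56.6 CPM (SD, n = 3 each; 26.0-fold; log2 4.69 ± 0.15 SE; adjusted p = 3.4e-17).

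Several of the other high regions had almost no input reads. MLYCD, which encodes malonyl-CoA decarboxylase, held 4, 2 and 1 input reads against 250, 150 and 154 IP reads at chr16:83920751-83921621 (log2 5.36 ± 0.37 SE; adjusted p = 4.7e-11). ADARB1, an adenosine-to-inosine RNA editing enzyme, held 3, 2 and 2 against 139, 97 and 79 reads near the 3′ end of the gene at chr21:45224194-45224944 (log2 4.55 ± 0.42 SE; adjusted p = 6.8e-09). MXI1, a MAX-binding repressor that opposes MYC, held 4, 4 and 0 against 83, 89 and 78 reads (log2 4.05 ± 0.49 SE; adjusted p = 3.8e-07). LPAR2, a receptor for lysophosphatidic acid, held 4, 0 and 5 against 100, 88 and 70 reads across its start (log2 3.93 ± 0.48 SE, adjusted p = 3.9e-07). The 5′ edge of this region of 833 bases lay at -710 bases from the nearest annotated start, so most of it was upstream of that start. In these 4 regions the lowest IP library stood above the highest input library by a wide margin, and the few input reads set the size of the fold loosely. PCSK6, a proprotein convertase, had no input read and 86, 75 and 49 IP reads, at least 37.8-fold higher against a floor of 3 reads over the group.

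Other high regions had enough input reads to measure both sides. ASPHD1, which encodes a protein with an aspartate beta-hydroxylase domain, held 318, 193 and 224 input reads and 6494, 4403 and 4909 IP reads (268 ± 47.7 to 3150 ± 312 CPM; 11.7-fold; adjusted p = 5.5e-16). ZSWIM9, a SWIM zinc finger gene, held 146, 89 and 130 against 2039, 2351 and 1937 reads near its 3′ end (9.61-fold; adjusted p = 1.4e-14). CA11, a carbonic anhydrase-related gene, held 272, 203 and 228 against 3345, 2373 and 2465 reads (6.32-fold; adjusted p = 1.1e-14). The RefSeq table used here gives no strand for these 3 genes or for KCNJ11, so sense and antisense origin were not separated there.

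ZFAND5, an AN1 zinc finger protein linked to proteasomal degradation, held 29, 13 and 26 input reads against 826, 546 and 395 IP reads in 152 bases at its start (log2 3.80 ± 0.23 SE). SEC14L1, of a lipid transfer protein family, held 28, 20 and 40 against 680, 501 and 499 reads at the end of the gene (log2 3.37 ± 0.19 SE). ARMCX4, an X-linked armadillo repeat gene, held 13, 15 and 16 against 466, 374 and 298 reads in the body of the gene (log2 3.80 ± 0.22 SE). These 3 regions lay at different places along their genes. HOXD13, a homeobox gene of limb patterning, stood at 3.76 ± 1.52 CPM in input and 43.7 ± 7.36 CPM in IP at an annotated start. TMEM87B, a Golgi membrane protein gene, stood at 5.47 ± 5.44 and 64.7 ± 6.80 CPM, and KCNJ11, the pore subunit of the ATP-sensitive potassium channel, at 4.74 ± 2.74 and 60.2 ± 17.0 CPM.

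The 15 highest regions were taken among those with at least 200 reads and no overlap between IP and input libraries. They were long, with a median of 760 bases (152 to 890) against 212 over all regions. Of them 6 spanned an annotated start and 4 lay in the last 10% of the gene. Over all regions, those called higher had a median length of 332 bases, those called lower 212 and those not called 182. In KD cells 14 of the 15 were called higher too, and HOXD13 had no input and 2 IP reads there.

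The lowest regions named here had at least 200 reads, so their input counts had to be high. Regions under that limit were as low, such as PDZD4 (log2 -3.16, 22 input reads) and DMWD (log2 -2.39, 32 input reads). SPATA1, a gene associated with sperm formation, held 39, 64 and 66 input reads and 12, 8 and 17 IP reads across its start (log2 -3.07 ± 0.37 SE; 8.46-fold lower; adjusted p = 4.3e-07). NAP1L1, a histone chaperone, held 227, 164 and 155 against 89, 77 and 90 reads across its start (200 ± 29.1 to 51.5 ± 5.63 CPM; 3.88-fold lower; adjusted p = 4.6e-09). The naming rule required that input and IP not overlap in CPM. In both genes they did not overlap in reads either, although the IP libraries were larger. DPH5, an enzyme of diphthamide synthesis on elongation factor 2, fell from 216 ± 21.3 to 67.9 ± 9.35 CPM. CIAO2A, a cytosolic iron-sulfur assembly factor, fell from 224 ± 23.4 to 73.7 ± 11.0 CPM across its start.

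Abundant messages with low uptake gave the smallest p. RPS6, a small-subunit ribosomal protein, held 3897, 3107 and 3340 input reads and 2288, 1968 and 2350 IP reads (3800 ± 130 to 1330 ± 159 CPM; log2 -1.52 ± 0.11 SE; adjusted p = 7.3e-11). NCL, the nucleolar protein nucleolin, held 1664, 1207 and 1360 against 980, 768 and 923 reads at its start (1550 ± 120 to 536 ± 52.2 CPM; 2.89-fold lower; adjusted p = 1.2e-10). Both genes had every input library above every IP library. G3BP2, a stress granule protein, fell by 1.38 on the log2 scale, SERBP1, an mRNA-binding protein of ribosomes, by 1.17 and DKC1, the pseudouridine synthase of box H/ACA particles, by 1.14, each with no overlap between groups.

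Of the 15 lowest regions, 4 had under 10 input reads in KD cells. These were SMO, the transducer of Hedgehog signals (58.2 ± 14.1 CPM in NC input, 11.3 ± 4.01 CPM in NC IP), PNMA8A (87.3 ± 12.6 and 20.3 ± 2.16 CPM), AKAP12, an anchor of protein kinase A (71.7 ± 14.8 and 18.3 ± 8.66 CPM), and LIN28B, an RNA-binding repressor of let-7 (72.0 ± 28.5 and 18 ± 6.83 CPM). Of them, PNMA8A and LIN28B are on the list of HEK293-line genes. The regions of PNMA8A, AKAP12 and LIN28B were named by the authors as KD peaks. They held 0 reads in KD input and 8, 3 and 5 reads in KD IP. Of the other 11, 9 were called lower in KD as well. None of the 15 highest or 15 lowest regions lost its call in any alternative analysis.

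**Figure D2:**
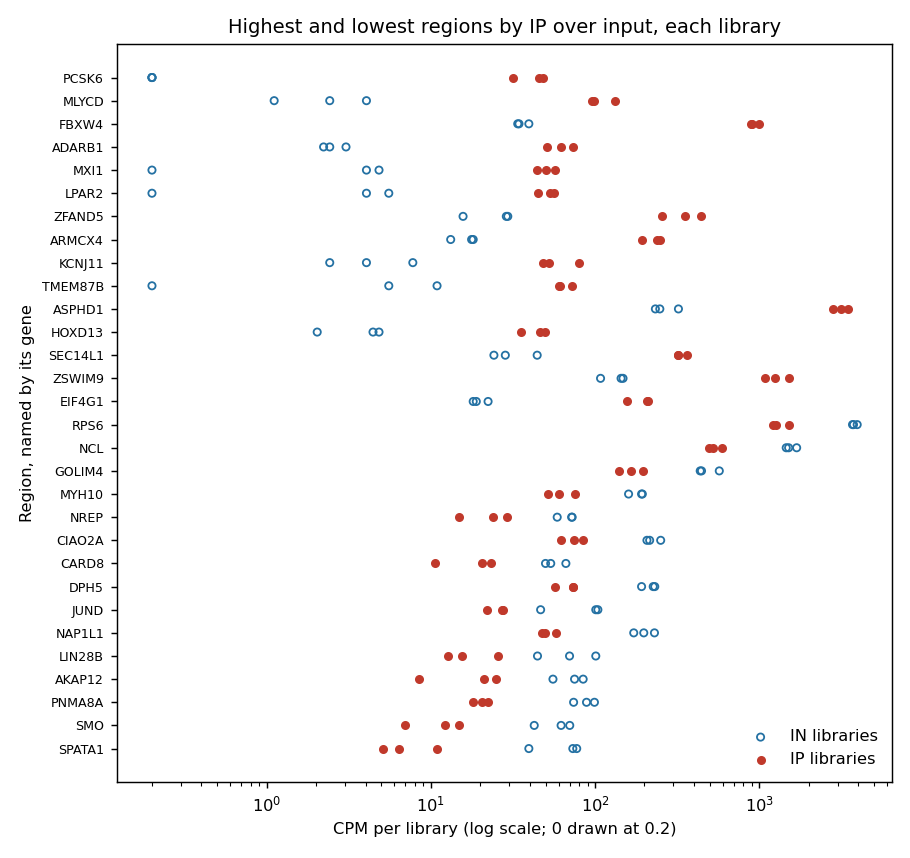
CPM of each control library (logarithmic x axis, 0 drawn at 0.2) for the 15 highest and 15 lowest regions among those with at least 200 reads, 1 region per gene, ordered by log2 IP over input. The 3 IP points and the 3 input points stand apart for every gene because the naming rule required it. IP is to the right in the 15 highest regions and to the left in the 15 lowest.

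Uptake went with the number of reads in a region. In 4 classes of 1581 regions (20 to 52, 52 to 172, 172 to 624 and 624 to 228373 reads), the median log2 IP over input was 1.03, 0.75, 0.16 and -0.41. Calls of lower IP made up 3.04%, 4.55%, 12.3% and 50.9% of the classes, and calls of higher IP 14.2%, 25%, 26.9% and 23.8%. All regions are called peaks, and a region with few reads and low IP had less chance to be one. The part of peak calling in this slope was not tested.

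The peak set also went with uptake. Regions named by the authors as NC peaks had a median of 0.66 (2974 regions) and those named as KD peaks of -0.01 (3350). NC peaks were called on these same NC libraries, so this order is no independent result. In the KD libraries the order was turned, at 0.10 for NC peaks and 0.68 for KD peaks. Regions of either set that overlapped a peak of the other set had a median of 0.59 in NC. Each of the gene classes described further on mixes both sets.

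Regions at the 5′ end of genes had higher IP over input than regions elsewhere, as described here by counts and medians without a test between the classes. Position was measured along the gene body on the strand of the region. The median log2 IP over input was 0.68 in the first 10% (2444 regions), -0.06 between the ends (2189) and 0.04 in the last 10% (1384). In the first 10%, 718 regions were called higher (29.4%) and 256 lower, and between the ends 377 were called higher (17.2%) and 575 lower (26.3%), against 22.5% and 17.7% over all regions. The gap between the first 10% and the middle was 0.75 with TMM and ranged from 0.71 to 0.81 when each library was left out.

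The regions were also split by annotated starts. Where an annotated RefSeq start lay inside a region or within 50 bases of it, 504 of 1611 regions were called higher (31.3%) and 153 lower (9.5%), with a median of 0.74. Where none did, 543 of 3287 were called higher (16.5%) and 770 lower (23.4%), with a median of -0.03. Regions in the middle of a gene that held an internal start had a median of 1.03 (180 regions), and middle regions without one of -0.25 (1605). Start regions had the higher median in each of the 4 classes by reads, at 1.44 against 0.70, 1.03 against 0.60, 0.44 against -0.04 and -0.09 against -0.56 from the fewest to the most reads.

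The medians were lower beyond 300 bases from a start. Regions whose 5′ edge lay within 20 bases of a start had a median of 0.80, those 20 to 100 bases downstream 0.84 and those 100 to 300 bases downstream 0.69. With the edge 20 to 200 bases upstream the median was 0.61, and further upstream it was 0.67. At 300 to 1000 bases the median was 0.09, at 1000 to 10000 bases 0.04 and beyond 10000 bases -0.25, where 12.9% were called higher and 25.7% lower. Distances are genomic and include introns.

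**Figure D3:**
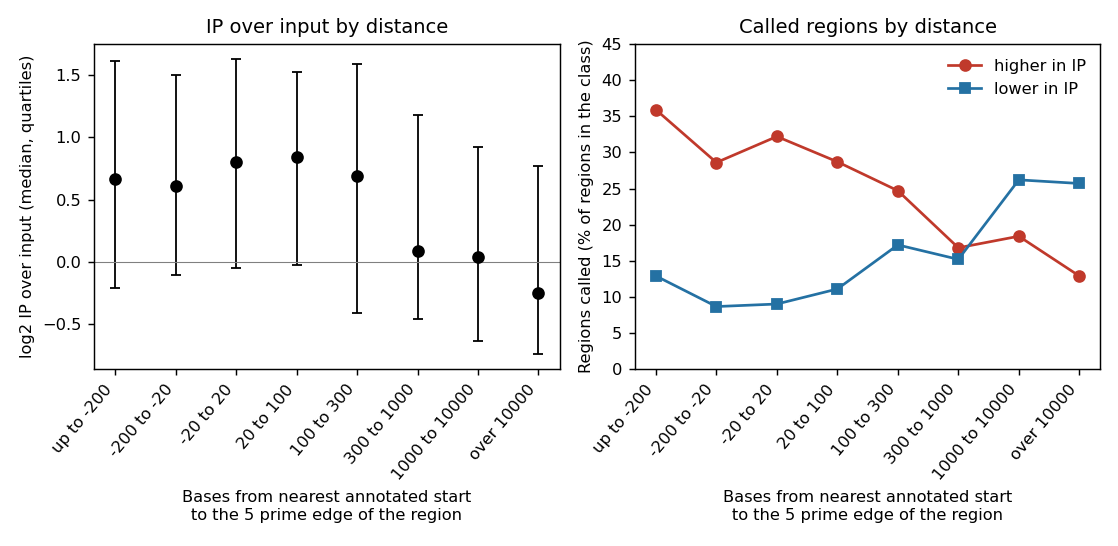
Left, median log2 IP over input with its quartiles (error bars) for regions grouped by the distance in bases from the nearest annotated start to the 5′ edge of the region, negative upstream. Right, percent of regions in each group called higher (circles) or lower (squares) in IP. The higher share is largest, 35.9%, over 200 bases upstream and is 32.2% around the start. Downstream it is 16.8% at 300 to 1000 bases, 18.4% at 1000 to 10000 and 12.9% beyond. The 2 curves cross between 300 and 10000 bases.

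Regions were also compared within genes. Of 769 genes with at least 2 separate regions, 240 had unequal IP over input among them (31.2%; edgeR test within genes, adjusted p under 0.05). This number was 143 without NC IP replicate 1, 143 without replicate 2 and 151 without replicate 3. In 258 genes with a region at a start and another elsewhere, the start region was the higher in 194 (75.2%), by a median of 0.78 on the log2 scale. In 54 of the 240 genes regions were called in opposite directions, and in 37 of these the higher region lay nearer the 5′ end. The regions of a gene can be NC peaks or KD peaks, and the peak set went with uptake. With NC peaks only, 54 of 185 genes had unequal regions. The part of the peak set in these differences was not tested.

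EIF4G1 encodes the protein that joins the cap-binding factor to the ribosome's initiation factors, and it had the smallest p of the 10 genes named here. Its start region (chr3:184314494-184315253) held 22, 15 and 17 input reads against 390, 326 and 244 IP reads (19.8 ± 2.23 to 191 ± 29.6 CPM; 9.68-fold higher). Its last region, 20385 bases downstream (chr3:184334879-184335059), held 124, 127 and 124 input reads against 158, 132 and 124 IP reads (139 ± 13.9 to 82.8 ± 2.65 CPM; 1.68-fold lower). The regions differed by 4.0 on the log2 scale (adjusted p = 5.6e-13). IP was thus above input in all libraries at one end of the gene and below it in all libraries at the other.

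FMR1, which encodes an RNA-binding regulator of translation, stood at 13.3 ± 2.19 CPM in input and 59.0 ± 19.9 CPM in IP at its start, and at 9.18 ± 6.48 and 1.82 ± 0.193 CPM near its 3′ end. PTOV1, a gene named from prostate tumors, stood at 3.76 ± 1.52 and 16.8 ± 6.17 CPM at its start and at 16.3 ± 5.93 and 5.02 ± 1.95 CPM at its end. DMWD, a WD-repeat gene, had a start region called higher (log2 2.44 ± 0.91 SE) and a later one called lower (log2 -2.39 ± 0.76 SE). These regions are thin, and each of these genes lost a call when single libraries were left out.

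Other genes had the high region away from the start. PIEZO1, a mechanically gated ion channel, held 1 input read and 42 IP reads in a region 76.1% along the gene, a ratio of 22.8 (95% counting interval 3.88 to 924), beside a region at 91.8% that fell by 0.67 on the log2 scale. GNAS, the stimulatory G protein alpha subunit, held 2 input and 36 IP reads in 61 bases (ratio 9.79, interval 2.52 to 83.9), and a region 239 bases further fell from 1110 ± 17.6 to 612 ± 18.8 CPM. CHD3, a chromatin remodeler of the NuRD complex, held 2 and 35 reads in its high region (ratio 9.52, interval 2.45 to 81.7), and BAZ2A, a subunit of the nucleolar remodeling complex, 3 and 42 reads (ratio 7.61, interval 2.43 to 38.4). UBN1, a subunit of the HIRA histone chaperone complex, had no input read in its high region and was at least 3.71-fold higher there. Of the 10 genes with the largest gap, 8 lost at least 1 of their region calls when single libraries were left out, and EIF4G1 and PIEZO1 kept both calls. In UBN1, BAZ2A, PIEZO1, FMR1, PDZD4, GNAS, CHD3 and PTOV1 the higher region was an NC peak and the lower a KD peak. In EIF4G1 and DMWD it was the other way round.

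Mitochondrial regions held 9.58% of NC input reads and 13.5% of NC IP reads. Of 16 regions (1 per overlapping cluster), 6 were called higher and 5 lower. The 2 rRNA regions were both lower, with a median of -0.81, and the 4 tRNA regions had a median of 0.90 (2 higher, 1 lower). Mitochondrial regions took the gene of largest overlap on either strand, so a region may be antisense to the gene it is named for. Starts of these regions lie 1 base before the annotated gene starts, as deposited, where the region is a whole gene.

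Among tRNA genes, the alanine tRNA gene TRNA held 63, 34 and 38 input reads and 427, 270 and 419 IP reads (49.0 ± 12.9 to 223 ± 48.2 CPM; 4.55-fold; adjusted p = 8.2e-09). Its neighbour TRNN, for asparagine, stood at 43.7 ± 7.34 CPM in input and 107 ± 21.7 CPM in IP (2.46-fold; adjusted p = 4.1e-05). Both lie on the minus strand, and IP exceeded input in every library. The region named for TRNS1, for serine, went the other way, from 1230 ± 183 to 653 ± 163 CPM (1.88-fold lower). Whether its reads came from the tRNA or from the opposite strand was not separated. TRNV, for valine, was not called (49.5 ± 5.24 and 71.0 ± 31.2 CPM, adjusted p = 0.13).

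Among mRNAs, ND6, the one complex I subunit encoded on the minus strand, rose from 10600, 14800 and 10500 CPM in the input libraries to 23300, 27100 and 25900 CPM in the IP libraries (2.12-fold; adjusted p = 9.6e-08). ND4L, ND1 and ND3, also complex I subunits, rose by smaller amounts, with log2 values of 0.71, 0.61 and 0.38. The call of ND1 was lost with DESeq2 and without NC IP replicate 2, and that of ND3 without NC IN replicate 3 or NC IP replicate 3. COX1 and COX2, subunits of cytochrome c oxidase, fell by 0.53 and 0.54 on the log2 scale, while a second COX1 region (log2 -0.35; adjusted p = 0.11), ATP6 (log2 -0.25; adjusted p = 0.24) and both CYTB regions (log2 -0.35 and -0.02) were not called. The first CYTB region passed the threshold in 4 alternative analyses, the second COX1 region in 3, ATP6 in 1 (the replicate block) and TRNV in 1 (library size alone). RNR2 and RNR1, the mitochondrial rRNAs, fell by 0.91 and 0.71. In KD cells TRNA, TRNN and ND6 were called higher as well, with log2 values of 3.17, 1.82 and 1.56.

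**Figure D4:**
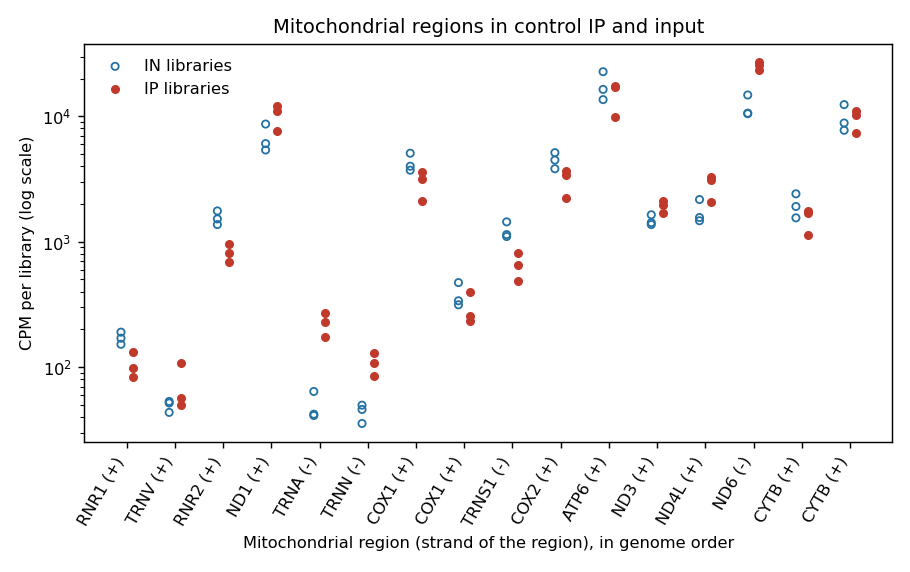
CPM of each control library (logarithmic y axis) for the mitochondrial regions in genome order, with the strand of the region in brackets; input and IP libraries have different markers. IP points stand clearly above input for TRNA, TRNN and ND6, which are on the minus strand, and below input for RNR1, RNR2 and TRNS1.

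Gene classes were described by 42 lists, of which 41 had regions; the list of m7G methyltransferases and their cofactors had none. Of the 41, 19 had a median above that of all regions (0.29) and 22 below it. Medians below 0 numbered 15, and 12 with library size alone. Classes differ in reads, which went with uptake, so the median reads of a region stand beside most classes (172 over all regions). Counts stand beside the 22.5% called higher and 17.7% called lower over all regions. Overlapping NC and KD peaks of 1 place are counted separately unless a count per cluster is given. For counts per cluster, the fit with 1 region per cluster called 914 of 4565 regions higher and 686 lower. With 1 region per cluster, RNA modification factors had 6 higher and 5 lower of 27, MAP kinases and dual specificity phosphatases 6 and 2 of 25, membrane traffic 14 and 13 of 83, and PPP phosphatases 7 and 8 of 32, where the order turned. No class was tested as a set. In 9 of the lists, those of AP-1 factors, integrins and adhesion, membrane traffic, mitochondrial respiration, the mitochondrial ribosome, nuclear pore, zinc fingers other than ZNF genes, solute carriers and stress granules, the median crossed that of all regions in 1 or more alternative analyses.

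Translation and RNA-binding lists went in different directions. RNA helicases (558 reads) had a median of -0.72, with 0 of 25 regions called higher and 14 lower. The spliceosomal helicase genes DHX15 and DHX38 fell from 614 ± 92.7 to 323 ± 32.3 CPM and from 235 ± 8.6 to 120 ± 12.8 CPM, and DDX42, a further spliceosome-associated helicase, from 611 ± 21.6 to 331 ± 35.1 CPM. In the list of cap binding and translation initiation, 17 of 42 regions were called lower and 8 higher (median -0.40, 656 reads), and regions at starts had a median of -0.22 against -0.70 for the others. EIF4B, a cofactor of the helicase eIF4A, stood at 1480, 1450 and 1490 CPM in input and 661, 761 and 668 CPM in IP, and EIF3G, of the eIF3 complex, at 668, 755 and 541 CPM and 239, 237 and 328 CPM. Neither gene had overlapping groups, while the start region of EIF4G1 described above went the other way. Elongation and termination factors had 4 of 11 regions lower and none higher, among them EEF2, the translocase (348 ± 23.2 to 205 ± 22.2 CPM). Aminoacyl tRNA synthetases had 3 higher and 3 lower of 11.

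Ribosomal protein genes were mixed. Cytosolic ribosomal proteins had 5 regions higher and 8 lower of 20, with a median of 0.01 and 1499 reads; with library size alone the order of the counts turned, to 6 higher and 4 lower. RPS14 fell from 1690 ± 73.7 to 858 ± 101 CPM across its start, and RPS6 is given above. RPS7 rose from 8.64 ± 3.09 to 42.5 ± 6.40 CPM and RPL15 from 29.2 ± 1.96 to 75.2 ± 18.8 CPM, both in regions in the first 10% of the gene with few input reads. Mitochondrial ribosome genes had 2 higher and 2 lower of 16, and nuclear genes of mitochondrial respiration 6 and 6 of 30. With library size alone the former had 5 higher and 0 lower, and the latter 12 and 2. COX6B1, an oxidase subunit, rose from 53.9 ± 6.43 to 209 ± 26.2 CPM, and NDUFB8, of complex I, fell from 229 ± 24.5 to 124 ± 23.9 CPM.

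Protein folding genes were the class with the largest share called lower among lists of at least 10 regions. Heat shock and chaperone genes had 29 of 47 regions lower and 6 higher, with a median of -0.61 and a median of 1281 reads. In the class of regions with most reads, all 28 chaperone regions were called lower with a median of -0.72, where 50.9% of all regions in that class were called lower and their median was -0.41. DNAJC7, a cochaperone, stood at 980, 1320 and 1170 CPM in input and 353, 439 and 524 CPM in IP. DNAJB6, another J-domain cochaperone, fell from 460 ± 36.0 to 219 ± 13 CPM. In the unfolded protein and integrated stress response list, 9 of 23 regions were lower and 5 higher, and PPP1R15A, which directs dephosphorylation of eIF2 alpha, fell from 848 ± 60.7 to 401 ± 32.8 CPM.

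Glycolysis, cytoskeleton and proteasome genes also had more regions called lower than higher. Glycolysis (486 reads) had 6 of 18 regions lower and none higher, with PKM, pyruvate kinase, at 2980 ± 233 CPM in input and 1520 ± 105 CPM in IP. Actin cytoskeleton genes (313 reads) had 19 of 62 lower and 7 higher, and tubulins and microtubule proteins (488 reads) 17 of 56 lower and 7 higher. With library size alone these counts were 12 and 11 for actin and 14 and 11 for tubulins. In the class with most reads 13 of 17 actin, 14 of 27 tubulin and 6 of 12 proteasome regions were lower, against 50.9% of all regions there. MYL6, a myosin light chain, fell from 4130 ± 251 to 2180 ± 256 CPM, and TUBA1B, an alpha tubulin, from 2790 ± 289 to 1480 ± 94.5 CPM. The proteasome (830 reads) had 8 of 23 lower and 4 higher, and 6 and 5 with library size alone. PSMC3, an ATPase of its regulatory particle, fell from 849 ± 90.0 to 433 ± 19.8 CPM, and PSME4, an alternative activator, rose from 16 ± 3.44 to 69.5 ± 13.6 CPM at its start. The 6 regions of oxidative stress and iron genes (2285 reads) included 4 called lower, among them FTH1, ferritin heavy chain (2550 ± 22.4 to 1540 ± 245 CPM), and NFE2L2, the NRF2 factor (62.8 ± 14.1 to 30.3 ± 2.93 CPM).

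Several signalling classes had more regions called higher than lower, as did all regions (22.5% against 17.7%). MAP kinases and dual specificity phosphatases had the highest median, 1.23, with 12 of 35 regions higher and 3 lower, and 2.12 in regions at starts. SPRED3, an inhibitor of the RAS pathway, stood at 9.12, 10.9 and 12.2 CPM in input and 109, 104 and 94.6 CPM in IP at its start (adjusted p = 1.3e-09). MAP2K7, a kinase that activates JNK, stood at 12.2, 15.7 and 18.9 CPM and 137, 109 and 95.9 CPM, and MAPK3, the kinase ERK1, at 3.04, 4.83 and 9.98 CPM and 48.3, 44.9 and 30.2 CPM. Input and IP lay far apart in all 3 genes, and their input levels were low. DUSP2, which inactivates MAP kinases, rose from 21.0 ± 10.8 to 92.2 ± 25.2 CPM. The class had a median of 144 reads a region.

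Protein phosphatases of the PPP family had 13 regions higher and 12 lower of 50, a median of 0.94 at starts and -0.73 elsewhere. PPP6R1, a regulatory subunit, rose from 29.9 ± 1.51 to 164 ± 5.44 CPM at its start, while its region 93.3% along the gene had a log2 of -1.02. PPP2CA, the catalytic subunit of PP2A, fell from 122 ± 22.4 to 57.5 ± 10.8 CPM. Cytokines, growth factors and receptors had 16 of 52 higher and 3 lower, with FGFBP3, a carrier of fibroblast growth factors, at 16.2 ± 0.937 CPM in input and 69.8 ± 11.9 CPM in IP. INHBA, the activin A subunit, went from 78.6 ± 16.6 to 30.4 ± 10.3 CPM. Ion channels (129 reads) had 19 of 56 higher and 4 lower, TMEM genes (65 reads) 10 of 55 higher and 3 lower, and apoptosis genes of the BCL2 family 6 of 18 higher and 2 lower. The share called higher in TMEM genes, 18.2%, lay below the 22.5% over all regions. BCL2L12, of that family, stood at 120, 100 and 108 CPM in input and 400, 449 and 389 CPM in IP, and the pore-forming BAX rose from 44.9 ± 1.69 to 76.2 ± 4.75 CPM. Innate and interferon signalling had 8 of 31 higher and 3 lower, and 3 and 2 of 22 with 1 region per cluster. Insulin and mTOR signalling had 7 of 33 higher (21.2%, below the share over all regions) and 3 lower.

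Transcription factor lists had more regions called higher than lower, as did all regions. ZNF zinc finger genes (88 reads) had 34 of 119 regions higher and 10 lower with a median of 0.81. Only 11 of these regions were in the class with most reads, with a median of 0.83, 7 called higher and 4 lower. All regions of that class had a median of -0.41. ZNF768 stood at 675, 680 and 927 CPM in input and 2100, 1820 and 1840 CPM in IP near its 3′ end, and ZNF318 fell from 261 ± 24.4 to 134 ± 7.14 CPM. Homeobox and forkhead factors had 14 of 46 higher and 4 lower, led by SIX5, a homeobox gene, at 20.8 ± 4.01 and 175 ± 19.1 CPM, and FOXO4, a forkhead factor under AKT, at 41.3 ± 3.99 and 186 ± 26 CPM. Immediate early and AP-1 factors went both ways, with 12 higher and 8 lower of 28 regions. FOSL2 rose at its start from 24.2 ± 7.63 to 87.6 ± 22.4 CPM, and JUN, in the middle of its single-exon gene, fell from 828 ± 18.6 to 442 ± 44.5 CPM.

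RNA polymerase II, Mediator and Integrator had 11 of 60 higher (18.3%, below the share over all regions) and 7 lower. POLR2H, a subunit shared by the nuclear polymerases, stood at 25.3 ± 14 and 206 ± 23 CPM and POLR2F, another shared subunit, at 618 ± 36.3 and 322 ± 37.8 CPM. Chromatin modifiers and remodelers had 30 of 143 higher and 42 lower, with medians of 0.96 at starts and -0.26 elsewhere; with library size alone they had 42 higher and 36 lower. HDAC8, a histone deacetylase, rose at its start from 23.8 ± 8.37 to 149 ± 17.6 CPM, and SMARCA4, the BRG1 ATPase, fell near its 3′ end from 716 ± 22.6 to 333 ± 23.9 CPM. Splicing factors and hnRNPs (720 reads) had 18 of 108 higher and 33 lower, and 25 and 24 with library size alone. SRSF5, an SR protein, fell from 868 ± 151 to 403 ± 36.3 CPM, and HNRNPD, which binds AU-rich elements, from 2580 ± 181 to 1330 ± 174 CPM. Stress granule and RNA decay genes (141 reads) had 14 of 45 higher and 6 lower, and 9 and 6 of 34 with 1 region per cluster. RNA modification factors (158 reads) had 14 of 39 higher and 5 lower, with PUS1, a pseudouridine synthase, at 30 ± 14.2 and 146 ± 6.94 CPM, and ZC3H13, of the m6A writer complex, at 1010 ± 70.3 and 621 ± 52.1 CPM.

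Membrane traffic had 26 of 119 higher (21.8%, near the share over all regions) and 15 lower. Solute carriers had 23 of 86 higher and 14 lower, with medians of 1.01 at starts and -0.18 elsewhere. SLC39A7 and SLC39A1, zinc transporters, fell from 793 ± 83.2 to 380 ± 18.7 CPM and from 620 ± 6.49 to 309 ± 25.4 CPM. ARF6, a small GTPase of endocytosis, rose from 93.2 ± 11.9 to 227 ± 38.0 CPM, and STX4, a plasma membrane SNARE, from 215 ± 37 to 447 ± 9.57 CPM. Ubiquitin conjugation and deubiquitinases had 27 of 133 higher and 23 lower, with TRIM44, a TRIM family member, at 1580 ± 169 and 3510 ± 109 CPM, and USP7, a deubiquitinase of the p53 pathway, at 217 ± 8.43 and 80 ± 12.5 CPM. Integrins, adhesion and matrix genes had 5 of 62 higher and 12 lower, and 8 higher and 6 lower with library size alone. Cell cycle genes had 3 of 33 higher and 10 lower, and 4 and 4 with library size alone. Nuclear pore and import genes had 7 of 30 higher and 4 lower. IPO9, an importin, rose from 68.9 ± 7.27 to 142 ± 14 CPM. XPO1, the main nuclear exporter, fell from 41.8 ± 15.2 to 11.9 ± 4.07 CPM in a region 2.05% along the gene. Its region at 0.713% had a log2 of 0.76.

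**Figure D5:**
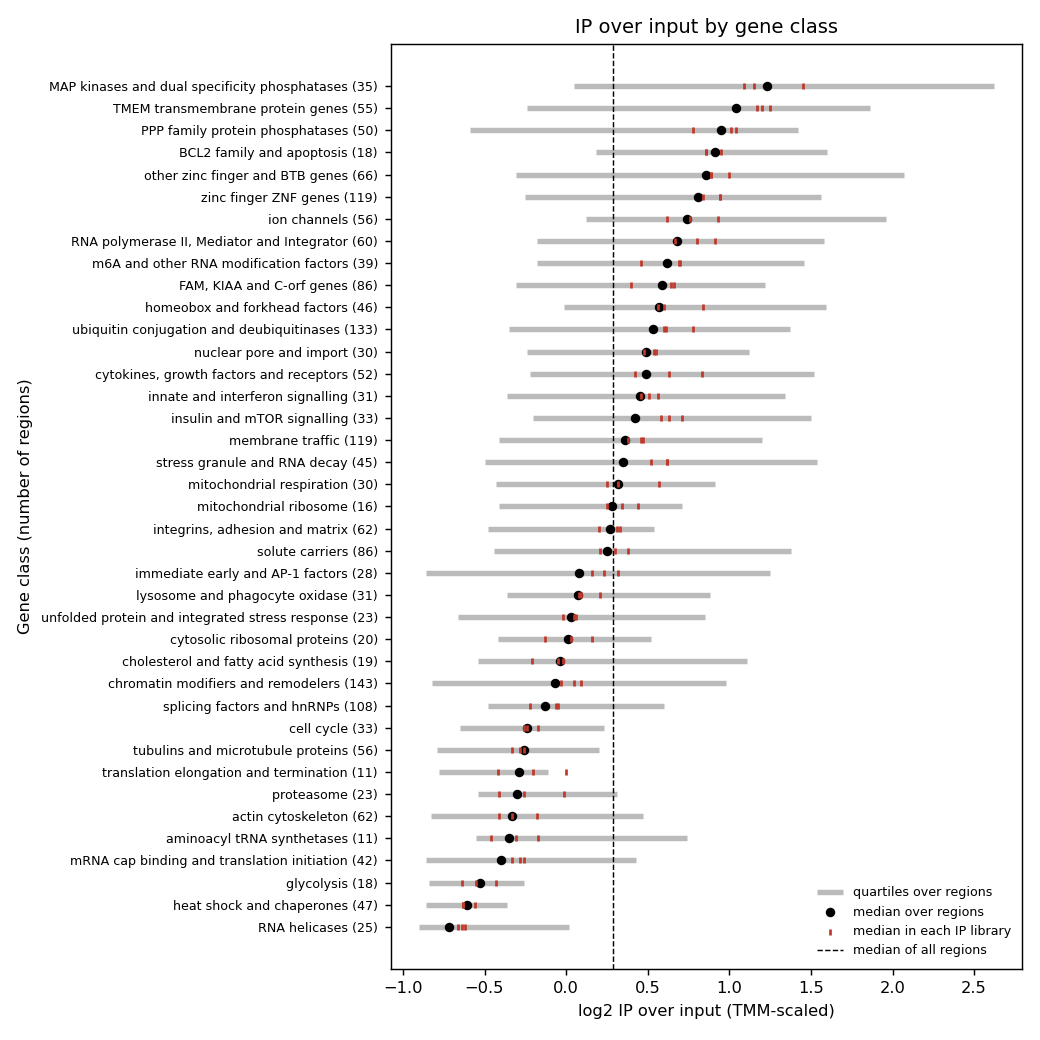
Median log2 IP over input (x axis, points) for each gene class with at least 10 regions, with the number of regions in brackets and grey lines from the lower to the upper quartile; red ticks are the medians of the single IP libraries against the mean of the input libraries, and the dashed line is the median of all regions, 0.29. Medians run from -0.72 for RNA helicases to 1.23 for MAP kinases and dual specificity phosphatases, and the quartile ranges of most classes overlap.

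Of the 11 macrophage markers with at least 20 reads, 3 were called higher, 3 lower and 5 not. APOE, an apolipoprotein secreted by macrophages, stood at 632, 558 and 497 CPM in input and 299, 326 and 237 CPM in IP (adjusted p = 2.5e-06). LAPTM5, a lysosomal membrane protein of blood cells, fell from 370 ± 36.5 to 219 ± 37.1 CPM, and MMP9, a secreted gelatinase, from 181 ± 34.1 to 104 ± 12.1 CPM. CYBA, a subunit of the phagocyte oxidase, rose from 66.7 ± 10.7 to 123 ± 15.3 CPM at its start. LPL, lipoprotein lipase, held 178, 106 and 110 input reads and 436, 413 and 450 IP reads (log2 0.86 ± 0.16 SE; adjusted p = 0.00011), and SPI1, the PU.1 factor of myeloid cells, was higher as well (log2 0.91 ± 0.21 SE; adjusted p = 0.0011). The RefSeq table gives no strand for LPL, SPI1, ITGAX or MMP9. ITGAX, an integrin, was not called (log2 0.32 ± 0.19 SE; adjusted p = 0.17), nor was CD33, a sialic acid receptor with few reads (log2 -1.23 ± 0.95 SE; adjusted p = 0.31). CYBB, the catalytic partner of CYBA, was measured near its 3′ end and was not called (log2 -0.23 ± 0.16 SE; adjusted p = 0.25), nor were CD68, a lysosomal glycoprotein (log2 -0.25 ± 0.20 SE; adjusted p = 0.33), and CD74, the invariant chain (log2 -0.02 ± 0.30 SE; adjusted p = 0.97). Lysosome and phagocyte oxidase genes had 7 of 31 regions higher and 4 lower. Of the lysosomal proteases, CTSL fell from 1150 ± 66.9 to 593 ± 90.4 CPM, and CTSZ rose at its start from 64.8 ± 18.8 to 121 ± 6.26 CPM. CTSD went both ways. Its region 97.5% along the gene fell from 305 ± 57.6 to 186 ± 32.8 CPM, and its region at 15.2% had a log2 of 2.68.

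The same regions were fitted in the KD libraries, which share none with NC. There 1216 regions were higher in IP (19.2%) and 1065 lower (16.8%). Of the 1423 regions higher in NC, 835 were also called higher in KD, which is 58.7% of the NC calls and 68.7% of the KD calls. Of the 1120 lower in NC, 807 were also called lower in KD (72.1% of the NC calls and 75.8% of the KD calls), and 2 in each direction were called the opposite way. Across all regions the 2 log2 values correlated at r = 0.384 (n = 6324 regions). Under 10 reads in KD input stood beside 388 of the NC-higher and 99 of the NC-lower regions.

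The difference between NC and KD in IP over input was called in 0 of 6324 regions (0%) by edgeR on all 12 libraries. Its smallest adjusted p was 0.078, 826 regions had an unadjusted p under 0.05, and DESeq2 called 28. FBXW4 had log2 values of 4.69 in NC and 5.36 in KD, RPS6 of -1.52 and -1.80, NCL of -1.53 and -1.43, and EIF4G1 at its start of 3.26 and 2.61.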

How the data were processed

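The authors deposited 1 table of 9958 peaks with raw read counts per library; per the submitters' processing notes, the build was GRCh38 and fastp 0.23.4 was used. The aligner, peak caller and counter are not given in the sources used here. The authors' deposited fold per peak, a ratio, is used only to describe peaks; their deposited p-value, FDR, score and log2 columns were not used here.

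Regions with at least 20 counts over the 6 NC libraries were fitted with edgeR 4.0.16 (R 4.3.3; TMM, quasi-likelihood F test, two-sided, 4 residual degrees of freedom), Benjamini-Hochberg adjusted over all 6324, threshold 0.05. CPM are TMM-scaled, means are ± SD (n = 3), and SE belongs to the log2 fold. Genes with unequal regions were tested with diffSpliceDGE in edgeR, and NC against KD on all 12 libraries (8 residual degrees of freedom). With 0 input reads a fold was bounded with 3 counts over the group; with 1 to 3 reads a ratio has a 95% Clopper-Pearson interval. Both cover counting error only.

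Genes, starts and sequences came from RefSeq tables (GRCh38.p14). The table gave gene strand for 4886 coding regions and none for 1150; exons were not used here. The members, gene lists, marker lists and naming rules were chosen with earlier results of these data known. Named are the 15 highest and 15 lowest regions among those with at least 200 reads and no overlap between IP and input libraries; with no such limits, the 5 with the smallest p in each direction, up to 4 per list by smallest p, 10 genes with regions called in opposite directions, mitochondrial regions and markers; not every one is printed. Not every start sequence of these regions is reported here. After the data were seen, naming was limited to regions on the strand of their gene, or, where no strand was given, with an edge within 25 bases of the gene's edge, outside chromosome Y; LPL, SPI1 and ITGAX, which that leaves out, were added after their values were seen. Scripts were tested on simulated data. Over all regions, same-numbered IP and input libraries did not deviate together (r = 0.046, 0.009 and -0.011), so replicate numbers were not used as pairs. Of these regions 3331 had under 200 reads, so the r values do not settle whether the numbers pair. With a replicate block in edgeR the adjusted p of ATP6 went from 0.24 to 0.0036 and that of the first CYTB region from 0.061 to 0.00072. Over all regions the block called fewer, 2368 against 2543.

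Alternatives were DESeq2 1.42.0, library size alone, other filters (none, filterByExpr, 50 reads), 1 region per overlapping cluster, NC peaks only, a threshold of 0.01, all 12 libraries, 500 bases in place of 10%, a replicate block and leaving out each library. A pair were added after the data were seen: leaving out genes scarce in KD input, and only regions with a matching gene strand.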

Additional observations from a re-analysis of the deposited data

How the results depend on the processing

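With 1 region per overlapping cluster 1600 regions were called (914 higher, 686 lower), and with NC peaks only 1208 (604 higher, 604 lower); both tested fewer regions. At an adjusted p under 0.01, 883 were called higher. Leaving out each library gave 1860 to 2527 called, 944 to 1461 higher (fewest without NC IP replicate 2) and 916 to 1081 lower. Genes with unequal regions numbered 54 with NC peaks only, 128 at 0.01 and 143 to 222 without each library. The difference between NC and KD was called in 28 regions with DESeq2, 44 with the replicate block, and 0 to 4 without each library. The gap between the first 10% of genes and the middle was 0.60 with no filter on reads. The replicate block, which treats same-numbered libraries as pairs, called 2368 regions (1279 higher, 1089 lower) and 215 genes with unequal regions. The cause of the other changes was not tested.

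Of 2855 comparisons over 222 named regions, 2712 kept their side of the threshold, 134 lost the call, 9 gained one and 0 reversed. Of 570 comparisons of list medians, 185 moved by more than the SD between IP libraries and 24 crossed the median of all regions. Depth limits the 3331 regions with under 200 reads, and 91 regions had no input read.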
